A study of Mus musculus with 8 samples.

Results

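The miRNAs described here carry a miRBase number of 3000 or more and were taken from a miRNA-seq table of 1966 mouse mature miRNA names. Of 987 names numbered that high, 412 were set aside by name (miR-3544, miR-5099, miR-5100, miR-6236 to miR-6240 and miR-6896 to miR-7094), which left 575. Of these, 356 had no count in any library, 137 had a summed count below 10 over the 8 libraries, and the remaining 82, here called the late-numbered miRNAs, were kept. They made up 15.4% of the 533 names in the table that reached the same summed count. They were thus selected on their summed count over all 8 libraries, so their abundance is given as a description, and the rule used no value of the comparison of IL-1β with vehicle, although results of that comparison were known when it was set.

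The libraries came from articular chondrocytes, which make and maintain joint cartilage, in primary culture from femoral heads of wild-type mice aged 3 weeks. The cultures received vehicle (n = 4) or 1 ng/ml IL-1β (n = 4), a proinflammatory cytokine that activates NF-κB, for 24 h, and both groups shared the same genotype, medium and culture format. Nothing in the sources states whether the 4 replicates of a group came from separate animals or cultures, so p-values measure only the spread between these samples, which may be technical. Cultured cells from young cartilage at a single dose and time are the limit of the model.

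A miRNA is cut from a hairpin precursor, and the mature product from the 5′ or 3′ arm (5p or 3p) guides the silencing complex to transcripts that pair with its seed, bases 2 to 8. Numbers are given in the order of registration, so high numbers are mostly miRNAs found late, by deep sequencing, and many are weakly expressed or known in few species. Some such entries lie in introns whose ends set the ends of the hairpin (mirtrons), some lie inside other small RNAs such as snoRNAs, which guide chemical modification of ribosomal RNA, and some resemble repeats.

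Library totals ran from 616475 to 1568367 counts, so that 1 count was worth 0.638 to 1.62 in counts-per-million (CPM) and 3 counts 1.91 to 4.87 CPM. The 4 chondrocyte markers listed, both arms of miR-140 and miR-455, held 15.6% to 16.8% of the counts in vehicle libraries and 12.4% to 15.3% in IL-1β libraries. Of 7 haematopoietic markers, 2 had counts (at most 0.00638% of a library), with miR-142a-3p, miR-223-3p, miR-451a, miR-144-3p and miR-144-5p at 0. Of 2 endothelial markers, 1 had counts and miR-126a-5p was at 0. The 6 muscle markers and the liver marker miR-122-5p were at 0, and 5 of 7 epithelial markers summed to at most 0.00115% of a library. miR-146a-5p, which NF-κB induces, was at 86.1 ± 10.8 CPM (SD, n = 4) with vehicle and 374 ± 300.2 with IL-1β, without overlap of the groups (log2 fold change 2.09, adjusted p = 0.184 by edgeR). It was thus not called under the rule used below (adjusted p under 0.05). IL-1β replicate 4 stood apart, with 821 CPM of miR-146a-5p (201 to 269 CPM in the other 3 IL-1β libraries) and the widest deviations from its group mean over 195 well-counted miRNAs (SD 0.402 on the log2 scale, against 0.151 to 0.233 in the other libraries).

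The mature sequences of the late-numbered miRNAs that held most of the counts, or had the smallest p-values in the comparison, are printed first, because they show what kinds of RNA lie behind these names. Sequences were found for 70 of the 82 and come from RefSeq (GRCm38.p6), 5′ to 3′, with the seed in capitals. The other 12 were miR-12185-3p, miR-12191-3p, miR-3470a, miR-3960, miR-3970, miR-5112, miR-5620-3p, miR-6539, miR-7224-3p, miR-7666-3p, miR-7668-5p and miR-7669-3p.
miR-6244: gGGGGCGUggaauuaucgggu
miR-5121: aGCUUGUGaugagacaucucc
miR-8112: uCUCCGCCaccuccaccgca
miR-3057-5p: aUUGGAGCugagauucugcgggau
miR-5126: gCGGGCGGggccgggggcgggg
miR-6412: uCGAAACCauccucagcuacua
miR-3535: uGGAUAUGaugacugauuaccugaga
miR-5106: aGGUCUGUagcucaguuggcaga

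The 70 sequences had 70 distinct seeds, so no seed was shared between late-numbered miRNAs, and 12 of them occurred in other names of the table (miR-5106 shares its seed with miR-6897-3p, miR-3473b with miR-3473e). Their median length was 22 nt (18 to 26), the same median as for the 421 other tested miRNAs with a sequence. Their median GC content was 57.1%, against 52.2% in those others, and miR-5126 consists of G and C alone.

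After miR-6244 the most abundant were miR-3963 and miR-3968. They are products of different loci with related sequences, shown here with the positions that are identical from the 5′ end in capitals. Identity held at 15 of 19 positions, with a longest unbroken run of 8.
miR-3963: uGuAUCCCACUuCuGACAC
miR-3968: cGaAUCCCACUcCaGACACca

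miR-3473b and miR-3473a share a run of 16 bases, in capitals below, that starts at a different position in each, so that the same run gives different seeds. The miR-3473b sequence was also found whole in an annotated transcript of the class misc_RNA, as was that of miR-3470b. Of the 70 sequences, 8 were found whole in another annotated small RNA (11.4%), against 19 of the 491 mapped tested miRNAs (3.9%).
miR-3473b: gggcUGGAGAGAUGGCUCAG
miR-3473a: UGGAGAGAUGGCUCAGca

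One hairpin, Mir3102, gave 4 of the late-numbered miRNAs. They lie end to end in pairs on the minus strand in an intron of Arhgef17 at chr7:100882388-100882409 (5p), chr7:100882367-100882387 (5p.2-5p), chr7:100882330-100882350 (3p.2-3p) and chr7:100882307-100882329 (3p) on GRCm38. Each product also overlaps an annotated exon. In the classes of position below, 5p.2-5p and 3p.2-3p therefore count as exon, and 5p and 3p as edge of an intron. The sequences are shown with the seed in capitals, since the products of a single precursor would recognise different sites.
miR-3102-5p: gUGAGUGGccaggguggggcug
miR-3102-5p.2-5p: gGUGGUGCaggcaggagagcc
miR-3102-3p.2-3p: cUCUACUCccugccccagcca
miR-3102-3p: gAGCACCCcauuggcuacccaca

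The late-numbered miRNAs together held 142083 of 7959576 counts (1.79%), and miR-6244 alone held 74.9% of that. In the vehicle libraries the late-numbered miRNAs took 1.39%, 1.85%, 1.6% and 1.78% of the counts, and in the IL-1β libraries 1.78%, 2.08%, 2.24% and 1.69%. The group means were 1.65% ± 0.206 and 1.95% ± 0.256 (SD, n = 4), and the groups overlapped. Exact (Clopper-Pearson) 95% binomial intervals for a single library were narrow, for example 1.37% to 1.41% in vehicle replicate 1, and cover counting error only. Without miR-6244 the share was 0.444% ± 0.00985 with vehicle and 0.453% ± 0.0335 with IL-1β. Between 68 and 82 of the 82 were seen per library, and 53 had a count in every library.

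Abundance fell steeply along the list. The 10 most abundant names had a mean of at least 100 normalized CPM (library totals scaled by TMM) and held 132751 of the counts, 24 lay between 10 and 100 CPM with 8017 counts, and 48 lay below 10 CPM with 1315 counts. The 12 names just inside the lower limit, with summed counts of 10 to 12, had means of 1.02 to 1.71 CPM, and the 13 just outside it, with 7 to 9 counts, had 0.634 to 1.29 CPM.

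**Figure D1:**
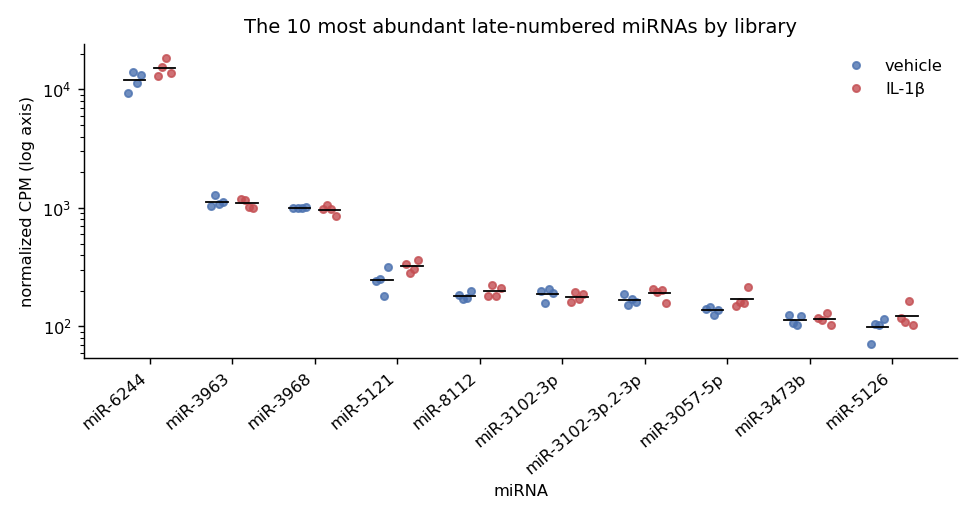
Normalized CPM (log axis) of the 10 most abundant late-numbered miRNAs in each library, with vehicle in blue, IL-1β in red and a bar at each group mean. miR-6244 lies above 9324 CPM in every library, and the next in order, miR-3963, at 999 to 1282 CPM.

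The comparison of IL-1β with vehicle asks which miRNAs respond to the cytokine. It was run on all 564 miRNAs that passed a filter of more than 1 CPM in at least 4 libraries, and all 82 late-numbered miRNAs passed it. No late-numbered miRNA was called by edgeR's quasi-likelihood test (adjusted p under 0.05 and a log2 fold change beyond 0.3 in either direction), where 11 of all 564 were (1.95%), 8 higher with IL-1β (1.42%) and 3 lower (0.532%). With a summed count of 10 as the only filter, again 0 of the 82 were called, against 1.88% of all tested. DESeq2 also called 0 of the 82, 52 of which had no adjusted p there, and 12 of all 564. At an unadjusted p under 0.05 there were 9 of 82 by edgeR (11.0%, against 11.2% of all tested) and 4 by DESeq2 (42 of all tested). Vehicle and IL-1β values did not overlap for 6 of 82 (7.32%), against 7.62% of all tested, with 5 higher (4.61% of all tested) and 1 lower (3.01%). These shares lie close to those of the whole table. Since miR-146a-5p was not called in this fit either, the lack of a call does not show the lack of a response.

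The 9 were split into 8 with a higher and 1 with a lower mean in IL-1β libraries, where all tested miRNAs with such p-values split into 40 (7.09%) and 23 (4.08%). Log2 fold changes were above 0 in 50 of 82 (61.0%), against 50.5% of all tested. Their median was 0.105, with quartiles at -0.111 and 0.429, and over all tested miRNAs the median was 0.0069. Without IL-1β replicate 4 these medians were 0.0386 and -0.0148.

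The width of the spread followed abundance. The median standard error of the log2 fold change was 0.118 for the 10 names of at least 100 CPM, 0.241 between 10 and 100 CPM and 0.740 below 10 CPM. In the lowest class the fitted log2 fold changes ran from -1.66 to 1.40, and none of the 48 names was called. A 2-fold change is a log2 fold change of 1, not far above the median standard error there, and may be missed. The smallest detectable change was not tested.

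**Figure D2:**
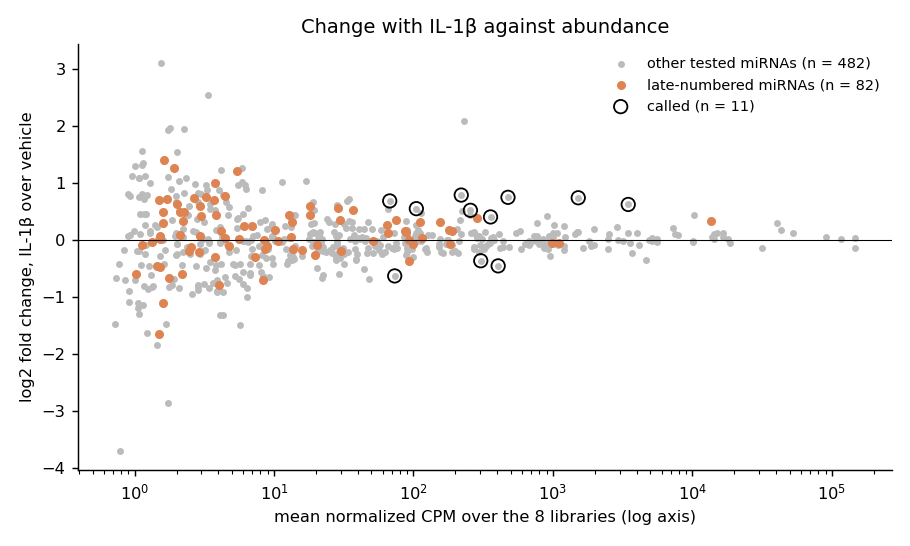
Log2 fold change (IL-1β over vehicle) against the mean normalized CPM over the 8 libraries (log axis), for the 82 late-numbered miRNAs in orange and the 482 other tested miRNAs in grey. The 11 called miRNAs are circled, all of them grey, and the scatter of the orange points narrows from below 10 CPM to above 100 CPM.

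miR-6244 maps to chr9:52115653-52115673 (plus strand, GRCm38), antisense to Zc3h12c, a gene of the zinc-finger endoribonuclease family. It was at 9324, 14111, 11408 and 13161 CPM in the vehicle libraries and at 12985, 15320, 18302 and 13750.4 CPM with IL-1β. The group ranges overlapped, with the lowest vehicle library well below the others. The means were 12001 ± 2106 and 15089 ± 2352 CPM (log2 fold change 0.33, SE 0.12, adjusted p = 0.197 by edgeR). Leaving out a library moved this value between 0.22 (without IL-1β replicate 3, adjusted p = 0.541 by edgeR) and 0.42 (without vehicle replicate 2, adjusted p = 0.130). Without vehicle replicate 1 it was 0.23 (adjusted p = 0.478).

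miR-3963 and miR-3968, the related pair printed above, lie at chr3:151023839-151023857 (outside annotated genes) and chr11:115447969-115447989 (antisense to Trim80), both on the minus strand. miR-3963 was at 1047, 1282, 1068 and 1122 CPM with vehicle and at 1186, 1158, 1026 and 999 CPM with IL-1β. miR-3968 was at 997, 995, 994 and 1019 CPM with vehicle and at 984, 1047, 981 and 861 CPM with IL-1β. The groups overlapped for both, with log2 fold changes of -0.05 (SE 0.09, adjusted p = 0.881 by edgeR) and -0.05 (SE 0.08, adjusted p = 0.872). Leaving out a single library turned the sign of each (0.019 for miR-3963 without vehicle replicate 2, and 0.0077 for miR-3968 without IL-1β replicate 4).

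Among the next in abundance, miR-8112 lies in an exon of Krcc1 and was at 181 ± 13.7 CPM with vehicle and 199 ± 21.9 with IL-1β (log2 fold change 0.15, adjusted p = 0.733 by edgeR, and 0.083 without IL-1β replicate 2). miR-3473b was at 114 ± 10.5 and 116 ± 11.4 CPM (adjusted p = 0.983). The all-GC miR-5126 lies antisense to Dner, a gene for a Notch ligand, and was at 71.1, 104, 102 and 115 CPM with vehicle and at 118, 108, 162 and 103 CPM with IL-1β. Its groups overlapped at 103 to 115 CPM, and the log2 fold change was 0.31 (SE 0.16, adjusted p = 0.475). Without IL-1β replicate 3 it was 0.16, and without vehicle replicate 1 it was 0.19.

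The lowest p-value of the 82 belonged to miR-5121, whose printed sequence lies whole within Snord33, a snoRNA encoded in the ribosomal protein gene Rpl13a (chr7:45126925-45126945, minus strand). It was at 241, 252, 182 and 315 CPM with vehicle and at 334, 282, 303 and 364 CPM with IL-1β. Vehicle replicate 4 lay within the IL-1β range, and the other 3 vehicle libraries lay below it. Its log2 fold change was 0.39 (SE 0.13, adjusted p = 0.146 by edgeR). It was called with 1 factor of unwanted variation in the fit (0.41, adjusted p = 0.0439) and without vehicle replicate 4 (0.51, adjusted p = 0.0373), whereas without vehicle replicate 3 the log2 fold change was 0.26 (adjusted p = 0.481).

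miR-3057-5p, from an exon of Apba3 (chr10:81271610-81271633, plus strand), was at 141, 146, 125 and 139 CPM with vehicle and at 149, 161, 158 and 216 CPM with IL-1β. The groups did not overlap, although the closest libraries were only a few CPM apart and the highest was IL-1β replicate 4. The log2 fold change was 0.32 (SE 0.12, adjusted p = 0.231 by edgeR), and 0.19 without that library (adjusted p = 0.482). With 1 factor of unwanted variation it was called (0.32, adjusted p = 0.0426).

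miR-6412 was the one late-numbered miRNA whose vehicle and IL-1β values separated with the IL-1β side lower. It maps outside annotated genes (chr10:122648412-122648433, plus strand) and was at 106, 118, 96.1 and 98.2 CPM with vehicle and at 76.8, 71.7, 93.5 and 84.0 CPM with IL-1β. Its log2 fold change was -0.38 (SE 0.14, adjusted p = 0.193 by edgeR), and it was not called under any of the 16 alternatives (adjusted p 0.0542 to 0.497).

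miR-5112 was at 26.5, 25.4, 23.1 and 18.7 CPM with vehicle and at 30.4, 43.0, 33.6 and 30.1 CPM with IL-1β. Every IL-1β library lay above every vehicle library, at 12 to 51 counts each. This gave a log2 fold change of 0.56 (SE 0.21, adjusted p = 0.197 by edgeR). Leaving out a library moved it between 0.39 (without IL-1β replicate 2, adjusted p = 0.655) and 0.63 (without IL-1β replicate 4, adjusted p = 0.117).

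miR-5106 was at 22.3, 34.7, 23.1 and 42.1 CPM with vehicle and at 36.8, 35.4, 58.5 and 41.4 CPM with IL-1β. The highest vehicle library lay above 3 of the 4 IL-1β libraries. For miR-5106 the log2 fold change was 0.52 (SE 0.22, adjusted p = 0.337 by edgeR). Leaving out a library moved it between 0.35 (without IL-1β replicate 3, adjusted p = 0.711) and 0.64 (without vehicle replicate 4, adjusted p = 0.227).

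On the lower side, miR-5122 was at 21.1 ± 4.19 CPM with vehicle and 18.2 ± 4.84 with IL-1β (log2 fold change -0.27, adjusted p = 0.760 by edgeR), and the log2 fold change was -0.10 without IL-1β replicate 4 and -0.11 without vehicle replicate 3. miR-7687-5p was at 11.7, 13.4, 9.36 and 6.23 CPM with vehicle and at 4.80, 3.37, 5.85 and 12.5 CPM with IL-1β. Its 3 lowest libraries were IL-1β libraries, and IL-1β replicate 4 was second highest of all 8. The log2 fold change was -0.71 (SE 0.41, adjusted p = 0.635 by edgeR), with -1.23 without that library (adjusted p = 0.164) and -0.40 without IL-1β replicate 2 (adjusted p = 0.770). miR-7666-3p had 2, 1, 4 and 3 counts with vehicle and 0, 1, 0 and 1 with IL-1β (log2 fold change -1.66, SE 0.99, adjusted p = 0.651), which is at or under the 3-count floor in 7 of 8 libraries.

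**Figure D3:**
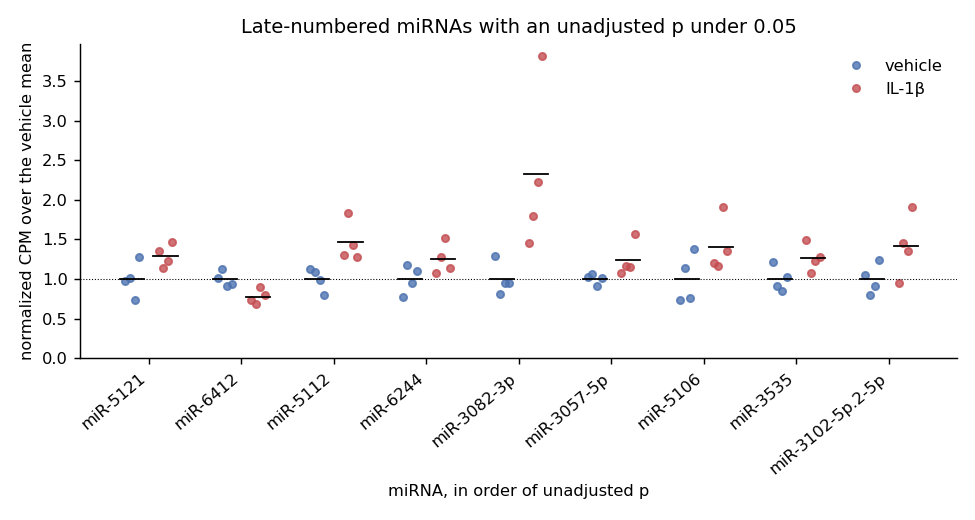
The 9 late-numbered miRNAs with an unadjusted p under 0.05, in order of p, as normalized CPM divided by the vehicle mean of that miRNA, for each library (vehicle blue, IL-1β red, bars at the group means). miR-6412 lies below the vehicle mean in all 4 IL-1β libraries, the other means lie above it, and miR-3082-3p is spread widest.

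By position on the genome, 6 of the 70 mapped names lay within another annotated small RNA (8.6%), against 16 of the 491 mapped tested miRNAs (3.3%). A further 11 lay at the edge of an intron (15.7%, against 12.8%), 16 in an exon of at least 1 annotated transcript (22.9%, against 19.1%), 22 elsewhere in an intron (31.4%, against 35%), 8 antisense to a gene (11.4%, against 8.8%) and 7 outside genes (10.0%, against 21.0%). These are counts of names and were not tested. The annotation used holds no nuclear transfer RNA genes, so overlap with transfer RNAs was not examined and is not part of the small-RNA class.

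The 6 within small RNAs, besides miR-5121 in Snord33, were miR-3535 in a snoRNA of Ncl, the nucleolin gene (chr1:86352062-86352087, minus strand), miR-3068-3p, whose own locus Mir3068 in Alkbh1 is annotated as a snoRNA, miR-6516-3p in a scaRNA, miR-3084-3p at 2 loci that include Snora19 in Eif3a, and miR-7650-5p in a snoRNA. Reads from the longer host RNA and from a mature miRNA of the same sequence cannot be told apart in these counts. miR-3535, described here because it belongs to this class and chosen after its values were seen, was at 80.6, 60.7, 56.2 and 68.6 CPM with vehicle and at 99.2, 71.7, 81.8 and 85.3 CPM with IL-1β. Replicate 1 was the highest library in each group and the groups overlapped at 71.7 to 80.6 CPM (log2 fold change 0.35, SE 0.15, adjusted p = 0.359 by edgeR). The log2 fold changes of the other 4 were 0.44 for miR-3068-3p, -0.29 for miR-6516-3p, 0.24 for miR-3084-3p and 0.07 for miR-7650-5p. The median of the 6 was 0.295, against 0.157 over the 16 tested miRNAs in the same position, and none of the 6 was called.

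**Figure D4:**
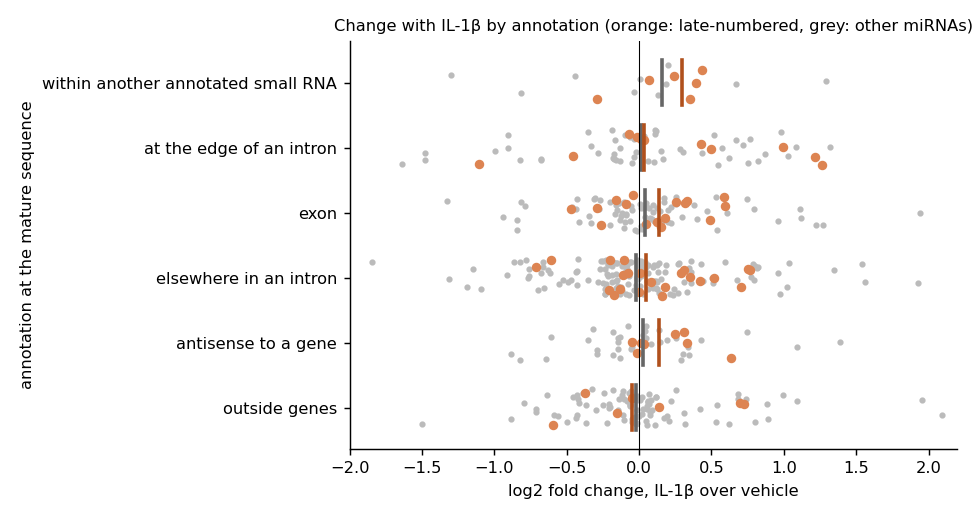
Log2 fold change (IL-1β over vehicle) by position of the mature sequence in the GRCm38 annotation, for late-numbered miRNAs in orange and other tested miRNAs in grey, with a bar at the median of the late-numbered miRNAs (orange) and of all tested (grey). Of 491 mapped miRNAs, 2 lie beyond the axis and are not drawn, and the orange medians run from -0.0491 outside genes to 0.295 within small RNAs.

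Of the late-numbered products, 10 lay at the 3′ end of an intron, the splice acceptor, each from its own hairpin. Their introns were 76 to 3951 nt long, and 8 were of at most 200 nt. Introns end in AG, and 8 of these 10 products end in the same bases, shown in capitals for 4 of them from the introns of Stub1, Irak1, Cnot3 and BC017158 (178, 76, 80 and 89 nt).
miR-3082-3p: cacauggcacucaacucugcAG
miR-5132-3p: cugauguuccccaucccgcAG
miR-3572-3p: uacacuuguccuucuuuccccAG
miR-3103-3p: uaaccucugauccuucccacAG

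miR-3082-3p lies in Stub1, the gene of the ubiquitin ligase CHIP (chr17:25831366-25831387, minus strand), and had 4, 4, 5 and 2 counts with vehicle and 3, 7, 5 and 10 with IL-1β. Scaled to library size these were 4.24, 2.67, 3.12 and 3.12 CPM against 4.80, 5.90, 7.31 and 12.5 CPM. The scaled groups did not overlap although the counts themselves did, and IL-1β replicate 4 was the highest. The log2 fold change was 1.21 (SE 0.47, adjusted p = 0.231 by edgeR), and 0.88 without that library (adjusted p = 0.548).

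miR-5132-3p lies in Irak1, which encodes a kinase of the IL-1 receptor pathway (chrX:74023534-74023554, minus strand), and had 2, 2, 1 and 0 counts with vehicle and 2, 3, 2 and 2 with IL-1β. Its scaled values did not overlap (1.02 ± 0.915 against 2.79 ± 0.334 CPM), yet every library was at or under 3 counts and the adjusted p was 0.664 by edgeR. miR-12185-3p was alike in this, with 1, 1, 2 and 0 counts against 1, 2, 2 and 3, no overlap after scaling and an adjusted p of 0.651. miR-3572-3p, from Cnot3, a subunit gene of the CCR4-NOT deadenylase, was at 2.55 ± 0.900 and 4.95 ± 1.72 CPM (adjusted p = 0.651). Of the 10 acceptor products, 7 had a log2 fold change above 0 and 3 below, and none was called. Among all 63 tested miRNAs at either edge of an intron, 33 were above 0 and 2 were called. At either edge, 11 late-numbered miRNAs were tested and 7 were above 0. The 3 acceptor products below 0 were miR-3102-3p at -0.07, miR-3103-3p at -0.02 and miR-3547-3p at -0.46 (adjusted p = 0.892 by edgeR). The last had 12 counts in all and, like the miR-3572-3p values, was picked after its value was seen.

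The plot of Mir3102 products shows how unevenly the counts fell along that hairpin. Of its counts, miR-3102-3p held 48.6%, miR-3102-3p.2-3p 46.3%, miR-3102-5p.2-5p 4.59% and miR-3102-5p 0.429%. The adjoining pair on the 3′ arm was thus near equal, and the outer product of the 5′ arm was seen 13 times in all.

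miR-3102-3p was at 200.5, 158, 205 and 190.1 CPM with vehicle and at 162, 195, 171 and 187 CPM with IL-1β (log2 fold change -0.07, SE 0.11, adjusted p = 0.872 by edgeR), with -0.15 without vehicle replicate 2 and -0.019 without vehicle replicate 3. miR-3102-3p.2-3p was at 187, 152, 170.4 and 162 CPM with vehicle and at 205, 196, 202 and 157 CPM with IL-1β (log2 fold change 0.18, SE 0.11, adjusted p = 0.670). miR-3102-5p.2-5p was at 15.9, 12.0, 13.7 and 18.7 CPM with vehicle and at 14.4, 21.9, 20.5 and 28.8 CPM with IL-1β (log2 fold change 0.59, SE 0.27, adjusted p = 0.385), with 0.43 without IL-1β replicate 4. Groups overlapped for all 3, and IL-1β replicate 4 was the highest library for the last of them. miR-3102-5p had 2, 6, 1 and 1 counts with vehicle and 1, 0, 2 and 0 with IL-1β (log2 fold change -1.10, adjusted p = 0.755), at or under 3 counts in 7 of 8 libraries. Leaving out a library moved this value between -2.15 (without IL-1β replicate 3) and -0.41 (without vehicle replicate 2), with -0.53 without IL-1β replicate 2. As a share of the hairpin's counts, miR-3102-3p was at 48.5% to 52.6% in vehicle libraries and 42.3% to 50.2% in IL-1β libraries, and miR-3102-3p.2-3p at 43.5% to 46.6% and 42.1% to 53.6%.

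**Figure D5:**
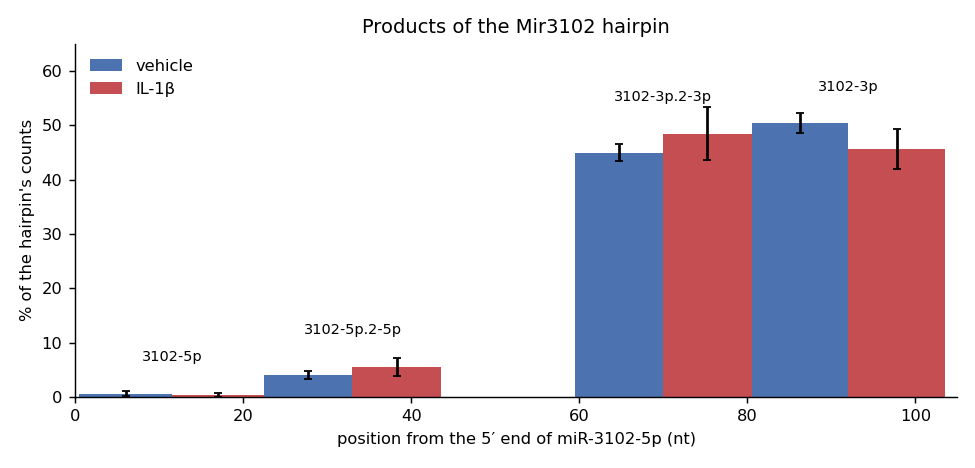
Share of the Mir3102 hairpin's counts (%, mean and SD, n = 4) for its 4 products, drawn at their distance in nt from the 5′ end of miR-3102-5p, with vehicle in blue and IL-1β in red side by side within the span of each product. The 2 products of the 3′ arm take nearly all counts in both groups.

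For 7 other hairpins both arms were among the 82. The 5p arm of Mir3057 outweighed its 3p arm by 70.8 to 1 (1204 against 17 counts), the largest imbalance. The 3p arm was the larger in Mir3103 (92 against 13), Mir3071 (103 against 33), Mir7668 (57 against 20) and Mir7658 (12 against 10), and the 5p arm in Mir7667 (27 against 10) and Mir5620 (17 against 16). The pairs Mir5620 and Mir7658 were near equal at counts too low to order them.

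A further 3 late-numbered miRNAs lie on the strand opposite an older-numbered hairpin, where the 2 products share bases as reverse complements. miR-3071-3p (103 counts) lies over miR-136-5p (11 counts) by 20 nt, miR-3071-5p (33 counts) over miR-136-3p (696 counts) by 19 nt, and miR-3074-5p (35 counts) over miR-24-3p (1238 counts) by 20 nt. The strand setting of the counting is not given in the sources used here, so whether reads of opposed products were kept apart is not known, although the paired counts are unequal. miR-3071-3p was at 12.5 ± 3.92 CPM with vehicle and 13.8 ± 4.01 with IL-1β (adjusted p = 0.991 by edgeR), and miR-3074-5p at 2.97 ± 2.48 and 5.91 ± 2.03 CPM (log2 fold change 0.77, adjusted p = 0.734). The latter log2 fold change was 1.31 without vehicle replicate 3 and 0.51 without IL-1β replicate 4. miR-3072-3p, in an exon of the imprinted noncoding gene Mirg (chr12:109747928-109747949, plus strand), was at 62.7 ± 3.22 and 69.3 ± 6.79 CPM (adjusted p = 0.794).

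miR-3960 had 2, 1, 17 and 5 counts with vehicle and 1, 6, 2 and 1 with IL-1β. Vehicle replicate 3 held 17 of its 35 counts, and the log2 fold change of -0.80 (adjusted p = 0.752 by edgeR) was 0.12 without that library, -1.25 without vehicle replicate 2 and -1.42 without IL-1β replicate 2. Of 12 older-numbered miRNAs listed as neighbours of hairpins numbered 3000 or more, which include miR-338 and miR-486 products whose late-numbered partners were not among the 82, 5 were tested and none was called (0 at an unadjusted p under 0.05), with 4 log2 fold changes above 0 and 1 below. Among them miR-136-3p was at 79.6 ± 12.0 and 98.5 ± 25.2 CPM (adjusted p = 0.458), and miR-24-3p at 156 ± 9.41 and 150.1 ± 21.3 CPM.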

How the data were processed

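Counts per mature miRNA and library (4 vehicle, 4 IL-1β) were used as the authors deposited them, beside a length column that was not used for scaling. Per the study's methods, reads were trimmed with cutadapt, aligned to mm10 and a GENCODE annotation with STAR at default parameters (version 2.4.2a in the submitters' processing notes, another in the methods) and counted with featureCounts. The source of the mature miRNA names, and the strand setting and handling of multi-mapping reads in the counting, are not given in the sources used here. A RUVseq correction is described, but the deposited columns hold whole numbers with unequal totals and were treated as uncorrected counts.

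The late-numbered miRNAs and all lists were chosen with earlier results of these data known. The test was edgeR 4.0.16 (R 4.3.3; TMM, robust quasi-likelihood, Benjamini-Hochberg over all 564 miRNAs above 1 CPM in at least 4 of 8 libraries), with calls at adjusted p under 0.05 and an absolute log2 fold change over 0.3. The SE is the size of the log2 fold change divided by the square root of F. The scripts were tested on simulated data. Named with values were the 10 most abundant, the 6 with the smallest p in each direction, those whose groups did not overlap, those with several products of a hairpin, and those opposite or beside older hairpins. Alternatives were other scalings, filters, DESeq2 1.42.0, a non-robust fit, a replicate block, 1 unwanted factor (estimated from residuals), a log2 fold change threshold of 1, and leaving out each library. Positions used GENCODE vM21 and RefSeq on GRCm38. Replicates within each group differed by more than counting noise.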

Additional observations from a re-analysis of the deposited data

Results flagged for a closer look

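Of 52 groups of 4 libraries examined, those of the 26 late-numbered miRNAs named with a log2 fold change, for a library far from the others, 1 stood out, where chance alone gives about 1 in 20. miR-3968 was at 1019.06 normalized CPM in vehicle replicate 4, against 994 to 997 CPM in the other 3 vehicle libraries, a gap of 0.886 of the group's range. The group's SD was 12.0 CPM on a mean of 1001 CPM.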

How the results depend on the processing

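No late-numbered miRNA was called with other scalings, other filters, DESeq2 (52 of the 82 had no adjusted p there), a non-robust fit or a log2 fold change threshold of 1, against 0 to 14 of all miRNAs. The threshold of 1 left 0 of all miRNAs. With the replicate number as a block, 2 were called (miR-5121 at a log2 fold change of 0.39 and adjusted p of 0.0274, and miR-6244 at 0.34 and 0.0303) of 20 in all, and with 1 factor of unwanted variation 2 (miR-5121 and miR-3057-5p) of 28 in all. Deviations of same-numbered libraries correlated at 0.171, -0.345, 0.101 and -0.183, not every library correlated best with its own number, and the samples share only a number.

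Leaving out each library gave 0 to 1 called late-numbered miRNAs and 7 to 19 of all, with 7 without vehicle replicate 2 or IL-1β replicate 1 and 19 without IL-1β replicate 4. The log2 fold change turned sign when a library was left out for miR-3963 (-0.11 to 0.019), miR-3968 (-0.088 to 0.0077), miR-3473b (-0.024 to 0.089), miR-3071-3p (-0.12 to 0.29), miR-3960 (-1.42 to 0.12) and miR-3071-5p (-0.62 to 0.0069), none of them called. The cause of these changes was not tested. Over the named miRNAs and alternatives, 400 of the values kept direction and were not called, 10 of them DESeq2 values without an adjusted p, 5 became called and 11 turned sign. The median standard error was largest for the 48 names below 10 CPM (0.740), which limits what can be read from them most.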
